A study of Mus musculus with 7 samples.

Results

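The Bcl2 family comprises the proteins that hold or open the outer mitochondrial membrane when a cell decides between survival and death, and its RNA was followed in the testis of male mice lacking *Rlim*, an X-linked gene for a ubiquitin ligase. The 10 members were taken by gene symbol: the effectors *Bax*, *Bak1* and *Bok*, the BH3-only genes *Bad*, *Bid* and *Bcl2l11* (Bim), and the guardians *Bcl2*, *Bcl2l1* (Bcl-xL), *Bcl2l2* (Bcl-w) and *Mcl1*. No cutoff on their values was used, but earlier results of these data were known when they were chosen. All 10 are among the 19719 genes of the table and passed the filter for testing. RNA of total testis from 8-week-old C57BL/6 males was compared between 4 cKO/Y Sox2-Cre libraries (Rlim-KO in the labels, cKO/Y in the following) and 3 fl/Y libraries (WT in the labels), the latter with the loxP-flanked *Rlim* allele. The study describes the males as littermates. Sox2-Cre is active in the early embryo, so that the deletion reaches germ cells and somatic cells alike. The labels give 2 batches: batch 2 holds replicates 1 and 2 of each genotype, and batch 1 holds fl/Y replicate 3 and cKO/Y replicates 3 and 4. The study calls the libraries biological replicates. The labels do not say whether each is 1 animal, and if animals were shared the p-values measure technical spread only.

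As background, effector proteins form pores in the outer mitochondrial membrane and let cytochrome c escape, which switches on caspases. Guardians bind the effectors and prevent this, and BH3-only proteins relay stress signals by docking a short helix, the BH3 domain, into a groove of the guardians or effectors. In the testis, large numbers of germ cells die during normal spermatogenesis, and mice lacking Bax or Bcl-w are known to be sterile as males.

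What the members share in sequence is the BH3 core. It was located in the coding sequence of each member by a leucine or methionine codon followed, after 3 codons, by a glycine or serine codon and then an aspartate codon, and there was 1 match in each. The stretches below are 9 codons long, from the GENCODE M21 transcripts on GRCm38. They are shown because every member has such a stretch. In the BH3-only proteins it is part of the helix that docks. Capitals mark the first codon and the pair of codons for glycine or serine and aspartate.
Bax: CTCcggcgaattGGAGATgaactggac
Bak1: CTTgctctcatcGGAGATgatattaac
Bok: CTGctgcgcttgGGAGATgagctggag
Bad: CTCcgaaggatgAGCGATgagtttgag
Bid: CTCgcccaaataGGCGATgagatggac
Bcl2l11: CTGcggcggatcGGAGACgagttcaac
Bcl2: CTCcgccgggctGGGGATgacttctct
Bcl2l1: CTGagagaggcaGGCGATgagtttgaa
Bcl2l2: ATGcgggctgctGGAGACgagtttgag
Mcl1: CTGcggcgcgtgGGCGACggcgtgcag

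*Bcl2l2* alone begins with a methionine codon, and *Bad* alone has the serine codon. The effectors' stretches lie at chr7:45465997-45466023 in exon 3 of *Bax* (ENSMUSG00000003873, minus strand), at chr17:27022531-27022557 in exon 4 of *Bak1* (ENSMUSG00000057789, minus strand) and, in *Bok* (ENSMUSG00000026278, plus strand), across the junction of exon 2 and the next exon, at chr1:93686657-93686669 and chr1:93689157-93689170. Those of the BH3-only genes lie at chr19:6950792-6950818 in exon 3 of *Bad* (ENSMUSG00000024959, plus), chr6:120897289-120897315 in exon 4 of *Bid* (ENSMUSG00000004446, minus) and chr2:128147150-128147176 in exon 3 of *Bcl2l11* (ENSMUSG00000027381, plus). Those of the guardians lie at chr1:106712575-106712601 in exon 1 of *Bcl2* (ENSMUSG00000057329, minus), chr2:152829697-152829723 in exon 2 of *Bcl2l1* (ENSMUSG00000007659, minus), chr14:54884517-54884543 in exon 3 of *Bcl2l2* (ENSMUSG00000089682, plus) and chr3:95659436-95659462 in exon 1 of *Mcl1* (ENSMUSG00000038612, plus). The pattern is loose, since 29.5% of 21951 coding sequences hold it somewhere, and a match alone does not make a gene a member.

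RNA levels are given in CPM, the reads of a gene relative to the scaled size of its library. *Rlim* itself was at 99.5, 70.7 and 61.5 CPM in the fl/Y libraries and at 32.6, 35.7, 21.7 and 20.7 CPM in the cKO/Y libraries, so that the genotypes did not overlap. Its log2 fold change was -1.38 with an adjusted p of 0.0087 from limma, a linear model with moderated variances on log2(CPM + 0.5) with the batch as a covariate. *Rlim* had a log2 fold change of -1.47 without the batch term (adjusted p = 0.921, limma), -1.28 without fl/Y replicate 1 (adjusted p = 0.154) and -1.29 without fl/Y replicate 3 (adjusted p = 0.634), so the size of the difference stayed while the call was lost. The counts cover the whole gene, so reads from exons that the deletion leaves are included. The libraries held 2822168 to 8633399 reads, so that a gene with 0 reads could be at up to 0.301 to 0.945 CPM (3 reads, counting error alone). Markers of spermatogonia, spermatocytes, spermatids, Sertoli, Leydig and peritubular myoid cells were all listed, whereas the 3 epididymis markers *Lcn5*, *Lcn8* and *Crisp1* were not.

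No difference between the genotypes was detected for any of the 10 members. At an adjusted p under 0.05 (limma, Benjamini-Hochberg over all 19400 genes tested), 0 members were called, where 0.00515% of all genes, namely *Rlim*, were called. At an unadjusted p under 0.05, again 0 members were called, against 2.58% of all genes. By edgeR and DESeq2 on the reads recovered from the table, 0 members passed an adjusted p of 0.05 as well, with 1 call over all genes by each tool. The fl/Y and cKO/Y libraries overlapped for every member, while 2.92% of all genes did not overlap. In bulk RNA, fewer cells of a type and less RNA per cell cannot be told apart.

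**Figure D1:**
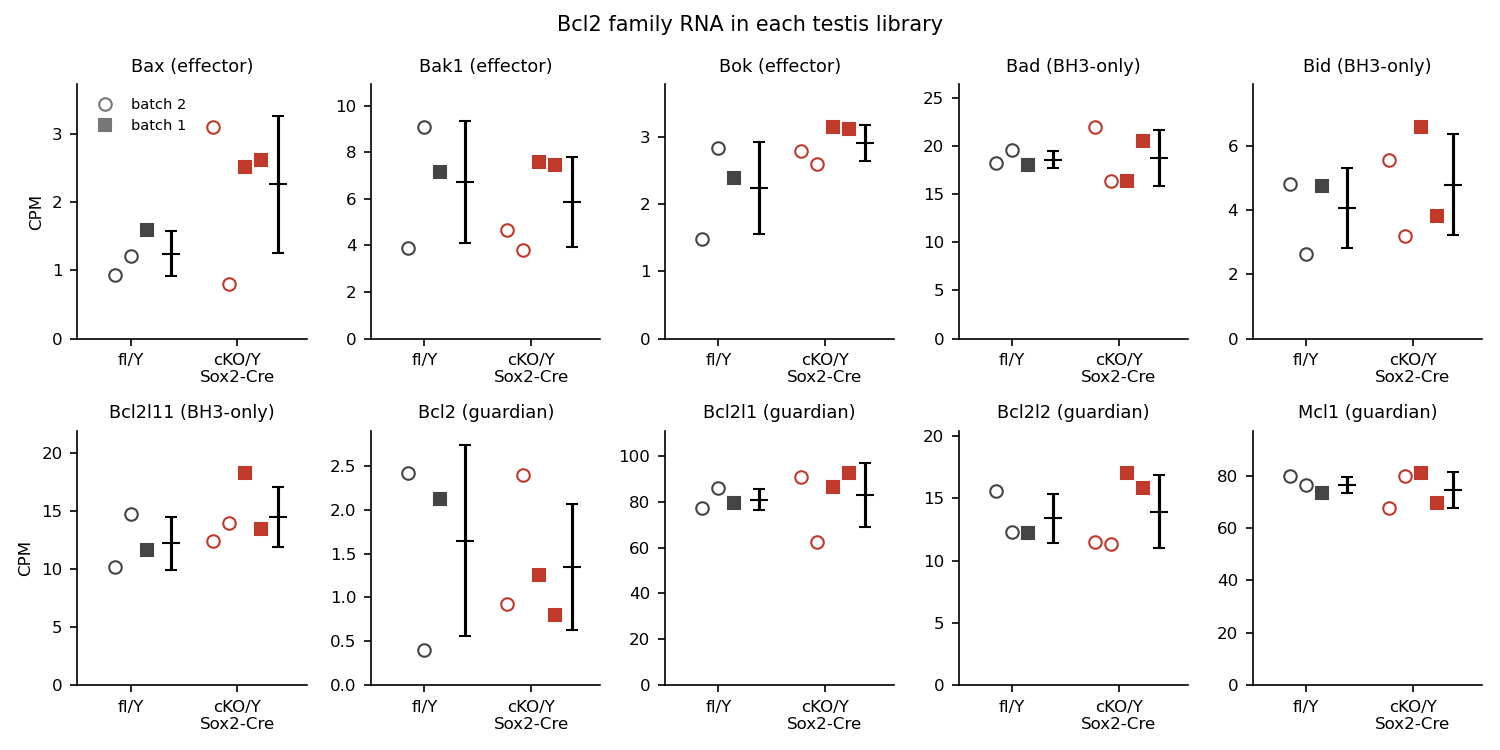
CPM of the 10 members in each library (open circles batch 2, filled squares batch 1), fl/Y in grey and cKO/Y in red, with mean and SD of 3 and 4 libraries at the right of each group. The groups overlap in all panels. The low cKO/Y point of Bax, Bak1, Bad, Bcl2l1 and Bcl2l2 is replicate 2 in each case.

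Among the effectors, *Bax*, which together with Bak forms the mitochondrial pore, had the largest log2 fold change of the 10 members. It was at 0.929, 1.21 and 1.59 CPM in fl/Y libraries and at 3.1, 0.797, 2.52 and 2.61 CPM in cKO/Y libraries. Of the cKO/Y libraries, 3 thus lay above all fl/Y libraries, and replicate 2 lay below all of them. The fl/Y mean of 1.24 ± 0.332 CPM (SD, n = 3) and the cKO/Y mean of 2.26 ± 1.01 CPM (SD, n = 4) gave a log2 fold change of 0.50 (95% interval -0.32 to 1.32, adjusted p = 1.00 from limma). The interval runs from a fold of 0.80 to a fold of 2.50. Within batch 2 the log2 fold change was 0.47, and within batch 1 it was 0.55.

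The values of *Bax* rest on 4 to 26 reads a library and 65 reads in all. The 4 reads of cKO/Y replicate 2 alone have an exact Poisson 95% interval of 0.217 to 2.04 CPM, which reaches the values of all 3 fl/Y libraries. Across the 7 libraries the variance of the *Bax* reads was 2.24 times that of counting alone, so the spread was larger than counting error gives. Without cKO/Y replicate 2 the log2 fold change was 0.88, with an unadjusted p of 0.0326 and an adjusted p of 0.785 (limma), in a fit where 6.28% of all genes were under an unadjusted p of 0.05. Without cKO/Y replicate 1 it was 0.14. On the scale of the recovered reads, with no pseudocount of 0.5 CPM, the log2 fold change of *Bax* was 0.71 by edgeR and 0.75 by DESeq2.

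*Bak1*, the other pore former, was at 3.90, 9.09 and 7.16 CPM in fl/Y and at 4.65, 3.79, 7.56 and 7.43 CPM in cKO/Y libraries. The values lay below 5 or above 7 in both genotypes, and the highest was an fl/Y library. The log2 fold change was -0.26 (95% interval -0.87 to 0.36), with -0.47 within batch 2 and 0.06 within batch 1. *Bok*, an effector that can act without the other effectors, was at 1.49, 2.83 and 2.39 CPM in fl/Y and at 2.79, 2.59, 3.15 and 3.11 CPM in cKO/Y libraries. Fl/Y replicate 1 was the lowest of the 7, and fl/Y replicate 2 lay inside the cKO/Y range. The log2 fold change of *Bok* was 0.32 (95% interval -0.34 to 0.98). The variance of its reads over the 7 libraries was 0.672 times that of counting, so that no spread beyond counting error was seen.

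Fl/Y replicate 1 and cKO/Y replicate 2, both of batch 2, had the smallest sums of the 3 effectors, 6.32 and 7.18 CPM, where the other 5 libraries had 10.5 to 13.2 CPM. The same 2 libraries had the smallest sums of 7 Sertoli cell markers, 354 and 362 CPM, against 531 to 661 CPM in the others. They also had the smallest sums of 5 spermatogonia markers (63.2 and 48.8 CPM) and of 6 elongating spermatid markers (6557 and 5958 CPM). Their sums of 6 spermatocyte markers were the largest, 1499 and 1441 CPM. The sums of round spermatid, Leydig, peritubular myoid, leukocyte, endothelial and red blood cell markers did not set these 2 libraries apart. For Leydig cells, for example, cKO/Y replicate 1 was lowest (422 CPM), and fl/Y replicate 1 was at 536 CPM. The part of any of these cell types in the effector values was not tested.

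The BH3-only genes had log2 fold changes of 0.01 to 0.22. *Bad*, whose protein frees effectors by occupying guardians, was at 18.2, 19.6 and 18.0 CPM in fl/Y and at 22.0, 16.3, 16.4 and 20.6 CPM in cKO/Y libraries. The 3 fl/Y libraries lay close together inside the wider cKO/Y range. The log2 fold change was 0.01 (95% interval -0.38 to 0.41), which leaves room for folds of 0.767 to 1.33. *Bid*, which links death receptors to mitochondria once caspase-8 has cut it, was at 4.83, 2.63 and 4.77 CPM in fl/Y and at 5.58, 3.19, 6.61 and 3.81 CPM in cKO/Y libraries. Both genotypes spanned low and high values of *Bid*, and its log2 fold change was 0.16 (95% interval -0.51 to 0.82).

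*Bcl2l11*, which encodes Bim, a BH3-only protein that binds all guardians, was at 10.2, 14.7 and 11.7 CPM in fl/Y and at 12.4, 14.0, 18.3 and 13.4 CPM in cKO/Y libraries. The highest value belonged to cKO/Y replicate 3, and the other 3 cKO/Y libraries lay within the fl/Y range. The fl/Y mean was 12.2 ± 2.31 CPM (SD, n = 3), the cKO/Y mean was 14.5 ± 2.58 CPM (SD, n = 4), and the log2 fold change was 0.22 (95% interval -0.23 to 0.67). It was 0.10 within batch 2 and 0.41 within batch 1.

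Among the guardians, *Bcl2l1* and *Mcl1* had the narrowest intervals of the family. *Bcl2l1* encodes Bcl-xL and was at 77.3, 86.0 and 79.6 CPM in fl/Y and at 90.9, 62.6, 86.6 and 92.4 CPM in cKO/Y libraries. The cKO/Y libraries held the 3 highest values and the lowest, that of replicate 2. The log2 fold change was 6.4e-05 (95% interval -0.34 to 0.34), so that folds under 0.790 or over 1.27 lie outside the interval. *Mcl1*, whose short-lived protein restrains Bak and Bim, was at 79.7, 76.3 and 73.5 CPM in fl/Y and at 67.6, 79.7, 80.9 and 69.5 CPM in cKO/Y libraries. The fl/Y values lay inside the cKO/Y range. The log2 fold change of *Mcl1* was -0.04 (95% interval -0.35 to 0.27), and its coefficient of variation over the 7 libraries, 7.04%, was the smallest of the 10 members.

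*Bcl2l2* encodes Bcl-w, the guardian needed in the adult testis, and was at 15.6, 12.3 and 12.2 CPM in fl/Y and at 11.5, 11.4, 17.0 and 15.9 CPM in cKO/Y libraries. The cKO/Y libraries of batch 2 were below all fl/Y values and those of batch 1 above all of them, and the log2 fold change was -0.27 within batch 2, 0.41 within batch 1 and 0.0036 over both (95% interval -0.44 to 0.45). *Bcl2*, the founding guardian, was at 2.42, 0.404 and 2.12 CPM in fl/Y and at 0.931, 2.39, 1.26 and 0.803 CPM in cKO/Y libraries. Its lowest and highest values were both fl/Y libraries, resting on 2 and 13 reads. The log2 fold change of *Bcl2* was -0.12 (95% interval -1.11 to 0.87), the widest of the family, with 0.33 within batch 2 and -0.79 within batch 1. Folds of 0.463 to 1.83 thus lie within the interval of *Bcl2*, which rests on 50 reads in all.

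**Figure D2:**
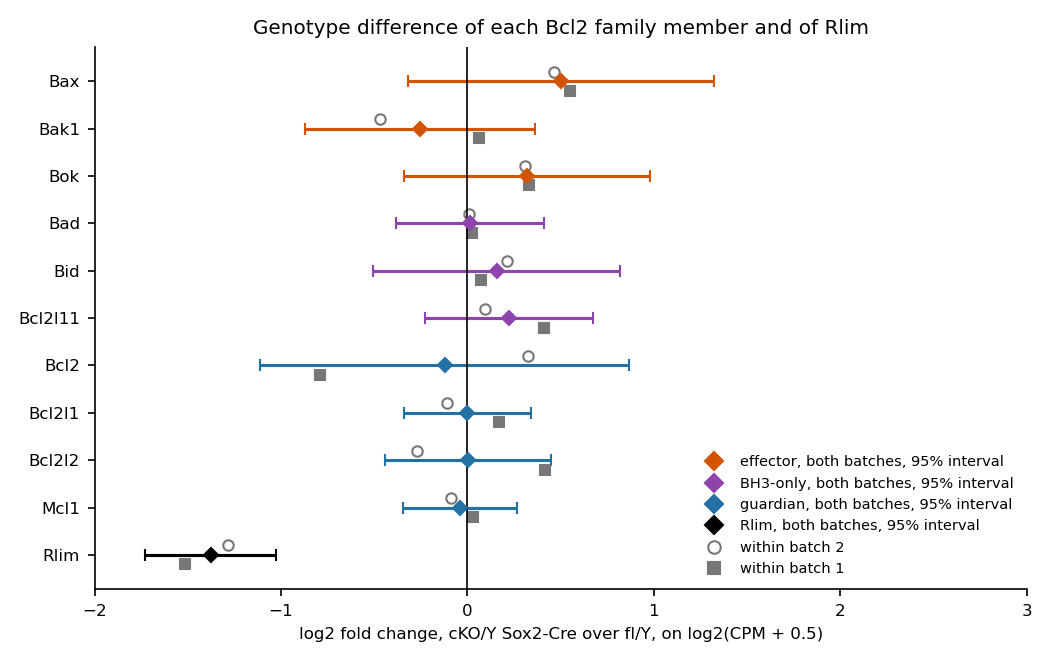
Log2 fold change of cKO/Y over fl/Y on log2(CPM + 0.5) for each member and for Rlim, with the 95% interval over both batches (diamonds, coloured by role) and the values within batch 2 (open circles) and batch 1 (squares). The interval of each member crosses 0, from the narrow one of Mcl1 (-0.35 to 0.27) to the wide one of Bcl2 (-1.11 to 0.87), and that of Rlim (-1.73 to -1.03) does not.

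Of the 10 members, 7 had a log2 fold change above 0 and 3 below it, and the median was 0.0087, beside -0.0055 over all genes. Whether the genotype difference depended on the batch was tested by an interaction term. In that fit 0 members passed an adjusted p of 0.05 (limma), against 0.0103% of all genes. The smallest unadjusted p of a member in it was that of *Bcl2l2*, 0.121, with a difference between the batches of -0.68 on the log2 scale (95% interval -1.57 to 0.21). Batch 1 holds a single fl/Y library.

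The batch was taken from the same fit as the genotype. Between batch 2 and batch 1, 7.06% of all genes passed an adjusted p of 0.05 and 0 of 10 members did. The 1370 genes behind this share became 122 without the variance trend and 2319 without the scaling factors. With 1 library left out they ranged from 73 (without fl/Y replicate 3) to 3030 (without cKO/Y replicate 1), and each library but fl/Y replicate 2 moved the count by more than 1.5 times. The members called were 0 in each of these fits. The libraries of the 2 batches did not overlap for 23.6% of all genes and overlapped for all members. *Bak1* had the smallest p, at 5.36 ± 2.52 CPM (SD, n = 4) in batch 2 and 7.38 ± 0.202 CPM (SD, n = 3) in batch 1, a log2 fold change of -0.55 (95% interval -1.17 to 0.06, adjusted p = 0.252 from limma). *Bax* followed with a log2 fold change of -0.47 (95% interval -1.29 to 0.35, adjusted p = 0.481 from limma). Without the scaling factors the median of all genes moved to -0.24 in this comparison, so the batch values hold for the scaled libraries. The most abundant gene, *mt-Rnr2*, took 5.06% to 8.08% of the summed CPM in batch 1. Its share was 16.8% to 17.7% in fl/Y replicates 1 and 2 and cKO/Y replicate 2. In cKO/Y replicate 1 the most abundant gene was CT010467.1, with 19.3%. The sum of 6 spermatocyte markers was 1284 to 1499 CPM in batch 2 and 645 to 908 CPM in batch 1. The sum of 5 round spermatid markers went the other way, 492 to 597 against 650 to 668 CPM. So did that of 6 elongating spermatid markers, 5958 to 7434 against 9577 to 11307 CPM. The part of these cell types in the batch values of the members was not tested.

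Levels were then compared between members, per kb of exonic length (the union of the exons in GENCODE M21) as a mean over all 7 libraries. *Mcl1* was at 22.0 ± 1.55 CPM per kb (SD, n = 7) and *Bcl2l1* at 17.9 ± 2.23 CPM per kb, above 88.8% and 86.3% of the listed genes. *Mcl1* was above *Bcl2l1* in 6 of 7 libraries, but their ranges overlapped, and per kb of the longest transcript *Bcl2l1* came first with 32.0 CPM per kb. *Bad* stood in the third place with 7.32 ± 0.829 CPM per kb, below *Bcl2l1* and above *Bcl2l2* in all 7 libraries with no overlap of the ranges.

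The middle of the order was crowded. *Bcl2l2* was at 3.07 ± 0.532, *Bak1* at 2.59 ± 0.866 and *Bcl2l11* at 1.69 ± 0.320 CPM per kb (SD, n = 7), and the listed genes had a median of 2.90 CPM per kb. *Bok* at 1.42 ± 0.308, *Bid* at 1.26 ± 0.390 and *Bax* at 1.16 ± 0.580 CPM per kb followed. From *Bcl2l2* to *Bax* each neighbour overlapped the next, with *Bok* above *Bid* in only 3 libraries and *Bid* above *Bax* in 4, so these places are not resolved beyond the spread. *Bcl2*, the gene that named the family, was last with 0.161 ± 0.0901 CPM per kb. Per kb it lay below *Bax* in all 7 libraries without overlap and above only 1.05% of the listed genes. This place rests on division by 9157 exonic bases. In CPM, *Bax* over *Bcl2* was 0.385 in fl/Y replicate 1, 0.75 in fl/Y replicate 3 and 0.333 in cKO/Y replicate 2. It was 2 to 3.33 in the other 4 libraries. The paper reports a shortened *Rlim* mRNA in mature testis, and the transcript lengths of the members there were not tested.

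**Figure D3:**
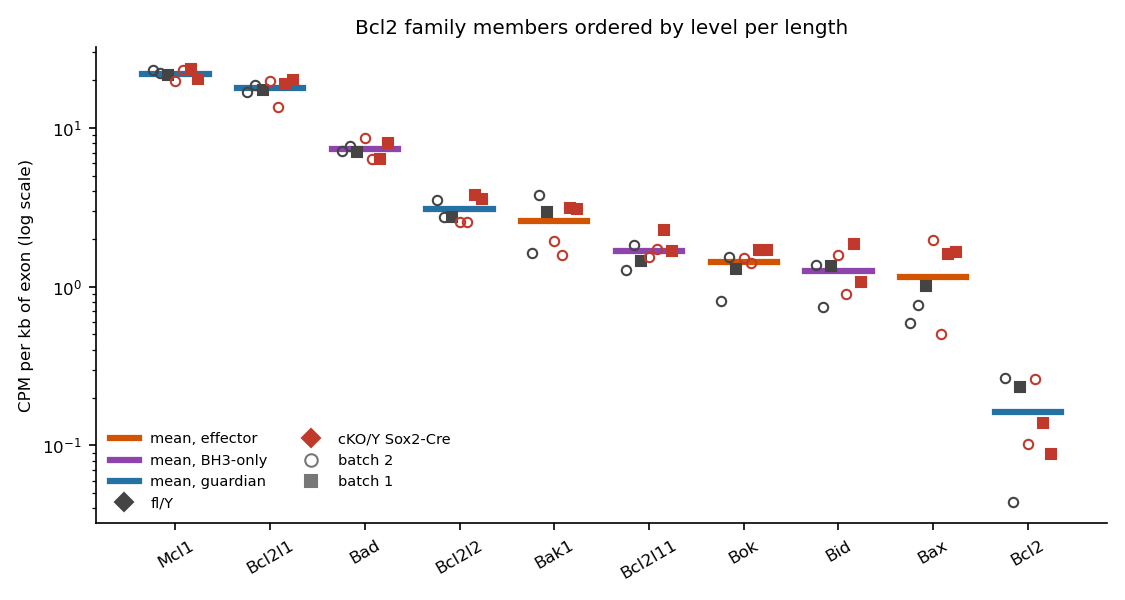
CPM per kb of exon for the 10 members, in descending order on a log axis, with 1 point a library (grey fl/Y, red cKO/Y, open circles batch 2, filled squares batch 1) and a line at the mean, coloured by role. Mcl1 and Bcl2l1 stand at the top, Bad in the third place, 6 members between 1.16 and 3.07 on average, and Bcl2 apart at 0.161.

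Exons of 6 members share bases with exons of another gene, and the strand setting of the counting is not given in the sources used here. In *Bak1* 25.5% of the exonic bases lie opposite exons of *Ggnbp1*, in *Bad* 20.5% (524 bases) opposite *Gpr137*, and in *Bid* 17.7% (628 bases) opposite its relative *Bcl2l13*. *Ggnbp1* was at 411 to 498 CPM, far above *Bak1*, and if the counting did not use strand, reads of the shared bases cannot be told apart. Smaller shares were found in *Bcl2l2* (13.3%, *Gm20521*), *Bax* (12.2%, *Gm45808*) and *Bcl2* (6.09%, D630008O14Rik), with genes that are not among those listed. *Gm20521* and *Gm45808* lie on the same strand as the member, so strand could not tell their reads apart. *Bok*, *Bcl2l11*, *Bcl2l1* and *Mcl1* share none.

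Summed by role and per kb, the guardians reached 43.2 ± 1.22 CPM per kb (SD, n = 3) in fl/Y testes and, in cKO/Y testes, 43.2 ± 2.85 CPM per kb (SD, n = 4). The BH3-only genes summed to 9.95 ± 0.253 and 10.5 ± 1.12 CPM per kb, and the effectors to 4.79 ± 1.59 and 5.45 ± 1.39 CPM per kb, in the same order. These differences are smaller than the SD of the cKO/Y libraries. *Mcl1* and *Bcl2l1* together made up 66.0% to 70.8% of the summed level of the family per kb in every library.

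Guardian RNA exceeded effector RNA per kb in each library. The ratio of the sums was 14.6, 7.22 and 7.92 in the fl/Y libraries and 7.80, 11.4, 7.21 and 6.86 in the cKO/Y libraries. The highest ratios belonged to fl/Y replicate 1 and cKO/Y replicate 2, the pair with low effector sums, and the other 5 libraries lay within 6.86 to 7.92. The ratio of *Bax* to *Bcl2*, often read as a measure of readiness to die, ranged per kb from 1.94 in cKO/Y replicate 2 to 19.4 in cKO/Y replicate 1. Both extremes were thus of 1 genotype and 1 batch and rest on 4 over 12 and 10 over 3 reads.

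**Figure D4:**
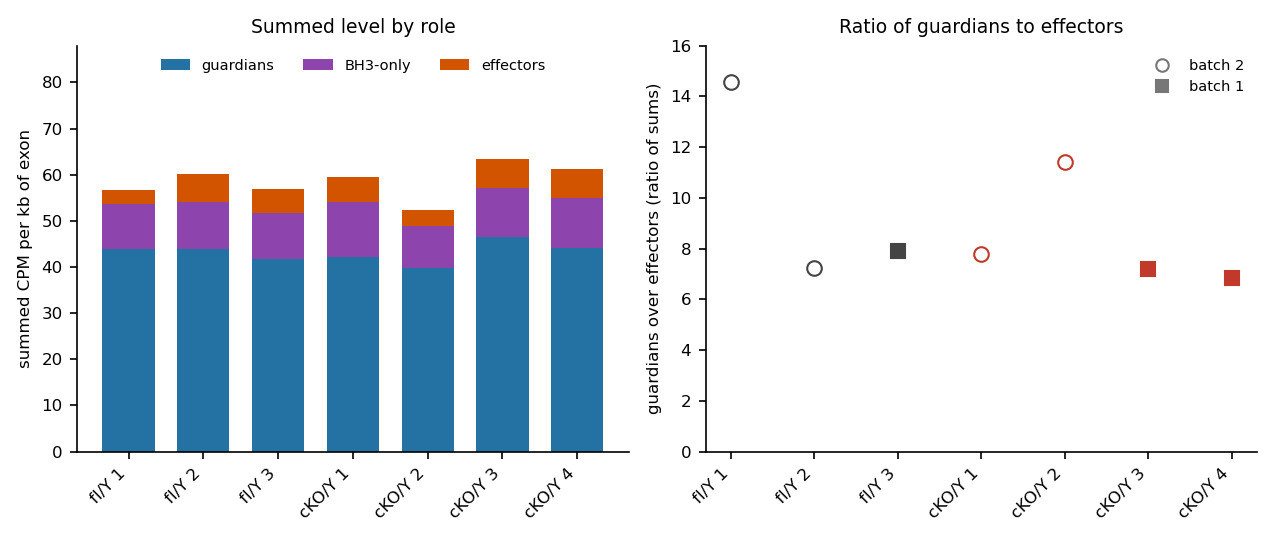
Left, summed CPM per kb of the guardians, BH3-only genes and effectors in each library as stacked bars from 0. Right, the ratio of summed guardians to summed effectors per library (grey fl/Y, red cKO/Y, open circles batch 2, filled squares batch 1). Guardians make up most of each bar, and fl/Y replicate 1 (14.6) and cKO/Y replicate 2 (11.4) stand above the other 5 libraries.

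The libraries differed in how often they held an extreme value. The matching shares over all genes were not taken, so the counts only describe the libraries and show no trait of the members. cKO/Y replicate 2 had the lowest value for 5 of the 10 members (*Bax*, *Bak1*, *Bad*, *Bcl2l1* and *Bcl2l2*) and the highest for 0. cKO/Y replicate 3, the library with the fewest reads (2822168), had the highest value for 5 (*Bok*, *Bid*, *Bcl2l11*, *Bcl2l2* and *Mcl1*) and the lowest for 0. Both are of the same genotype, and the spread among cKO/Y libraries was larger than that among fl/Y libraries for *Bax*, *Bad*, *Bid*, *Bcl2l11*, *Bcl2l1*, *Bcl2l2* and *Mcl1*, by their SDs, in groups of unequal size and with no test.

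The wider family was taken from a list of 15 relatives, of which 9 are in the table and 6 (*Bcl2a1a*, *Bcl2a1b*, *Bcl2a1d*, *Bcl2l10*, *Bcl2l15* and *Hrk*) are not. Every listed gene had at least 0.903 CPM in 3 libraries, so an unlisted relative may still have been above 1 CPM in 1 or 2. Of the 9, 0 passed an adjusted p of 0.05 and 0 an unadjusted p of 0.05 (limma), and their median log2 fold change was -0.10. *Bcl2l14*, a more distant relative, averaged 333 ± 30.7 CPM (SD, n = 3) over the fl/Y and 321 ± 48.0 CPM (SD, n = 4) over the cKO/Y libraries. Per kb it stood at 79.6 ± 9.48 CPM over the 7 libraries, above each of the 10 members. *Bcl2l12* stood at 11.7 ± 3.21 CPM per kb, between *Bcl2l1* and *Bad*, and *Bcl2l13*, a mitochondrial relative, at 3.88 ± 0.671 CPM per kb.

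The stress-induced BH3-only genes were scarce. *Bbc3* (Puma) and *Pmaip1* (Noxa), both p53 targets, averaged 0.434 ± 0.336 and 0.890 ± 0.565 CPM per kb (SD, n = 7). *Bbc3* was at 0.372, 0.606 and 1.06 CPM in fl/Y and at 0.310, 0.399, 2.20 and 1.51 CPM in cKO/Y libraries. All 3 values above 1 CPM were of batch 1, at an adjusted p of 0.0937 (limma) for the batch. *Pmaip1* went the other way, with 2.02 to 4.96 CPM in batch 2 and 0.315 to 1.86 CPM in batch 1, at an adjusted p of 0.0672 (limma) for the batch. The batches did not overlap for either gene, as for 23.6% of all genes. The lowest values, 0.310 CPM of *Bbc3* in cKO/Y replicate 1 and 0.315 CPM of *Pmaip1* in cKO/Y replicate 3, are 1 read each. *Bmf* and *Bik*, further BH3-only genes, were similarly low, at 0.309 ± 0.0982 and 0.965 ± 0.437 CPM per kb (SD, n = 7). Their log2 fold changes between the genotypes were -0.25 (95% interval -1.01 to 0.51) and -0.57 (95% interval -1.45 to 0.31). *Bnip3* and *Bnip3l*, receptors for the removal of mitochondria, had log2 fold changes of -0.15 (95% interval -0.68 to 0.38) and -0.16 (95% interval -0.55 to 0.23).

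Around the family, 5 further lists covered what lies downstream and upstream of it. Of the 6 lists together, relatives included, 58 of 66 genes were tested, and 0 passed an adjusted p of 0.05 in either direction (limma). At an unadjusted p under 0.05, 1 gene was lower (1.37% of all genes) and 0 were higher (1.22% of all genes). For 5 of the 58 genes (*Vdac1*, *Casp6*, *Birc3*, *Fadd* and *Cdkn1a*) the genotypes did not overlap, beside the 2.92% of all genes given above. The lists were chosen with earlier results known, so this count is a description.

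Downstream of the pore, 10 genes of the apoptosome and of mitochondrial release had a median log2 fold change of 0.03. *Vdac1*, a channel of the outer membrane, averaged 12.9 ± 1.23 CPM (SD, n = 3) over the fl/Y and 15.9 ± 1.66 CPM (SD, n = 4) over the cKO/Y libraries, a log2 fold change of 0.27 (95% interval -0.13 to 0.67). *Htra2*, a protease released with cytochrome c, had a log2 fold change of -0.35 (95% interval -1.07 to 0.38). The 10 caspases and inhibitors of apoptosis had a median of 0.04. Among them *Birc3*, an inhibitor, had a log2 fold change of -0.53 (95% interval -1.16 to 0.09), and *Casp6*, an executioner caspase, one of 0.41 (95% interval -0.13 to 0.95).

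Upstream, the 8 tested genes of the death receptor list, which meets the family at *Bid*, had a median log2 fold change of 0.23. *Fasl*, the ligand of Fas, had a log2 fold change of -0.81 (95% interval -1.74 to 0.12) and *Fadd*, the adaptor of the receptor, one of 0.45 (95% interval -0.15 to 1.05). The 10 genes of p53 and its targets had a median of -0.0064. The 1 gene under an unadjusted p of 0.05 was here: *Cdkn1a*, the p53 target that arrests the cell cycle, was at 5.95, 6.87 and 5.04 CPM in fl/Y and at 4.96, 2.99, 4.09 and 2.41 CPM in cKO/Y libraries. Its log2 fold change was -0.63 (95% interval -1.24 to -0.03), with an adjusted p of 1.00 (limma). *Trp63*, a p53 relative, had a log2 fold change of 0.56 (95% interval -0.42 to 1.53).

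Finally, 11 modifiers and binders of Bcl2 proteins, among them the ligases and deubiquitinases that set the life of Mcl1, had a median log2 fold change of -0.0030. *Bag6*, a chaperone factor, averaged 442 ± 108 CPM (SD, n = 3) over the fl/Y and 550 ± 136 CPM (SD, n = 4) over the cKO/Y libraries, and *Bag1*, named as a binder of Bcl2, at 265 ± 29.9 and 262 ± 41.3 CPM. *Bag6* was lower in batch 2 than in batch 1, 414 against 624 CPM, with an adjusted p of 0.0389 (limma) for the batch.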

How the data were processed

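The 7 libraries hold total testis RNA of 3 fl/Y and 4 cKO/Y samples. The deposited signal values are CPM scaled by the authors, 1 column a library. Per the labels' processing notes HISAT2 2.1.0, featureCounts, edgeR and GRCm38 were used, while the study's methods name TopHat and HTSeq. In each library 100% of values came out as whole reads (tolerance 0.001), and each library's scaling equalled its TMM factor. The 19400 genes above 1 CPM in 3 or more libraries were fitted on log2(CPM + 0.5), which understates the change of low genes, by limma 3.58.1 (R 4.3.3) with a variance trend and a batch term. Two-sided p-values were adjusted by Benjamini-Hochberg over all genes tested, with a threshold of 0.05. Replicate numbers were not treated as pairs. Alternatives were edgeR 4.0.16 and DESeq2 1.42.0 on the recovered reads, other pseudocounts, filters, scalings, batches and left-out libraries. Exon lengths and sequences are from GENCODE M21. The fits were tested on simulated data with no batch effect and with changed genes above 5 CPM only. That test does not cover genes as low as *Bax*, *Bok*, *Bid* and *Bcl2*. The members and gene lists were chosen with earlier results of these data known. All 10 members, *Rlim* and all relatives are named, and of each other list the genes past the threshold or else the 2 with the smallest p. Genes that overlap a member were named after their values were seen.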

Additional observations from a re-analysis of the deposited data

How the results depend on the processing

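No member passed an adjusted p of 0.05 between the genotypes or the batches under any alternative run, with smallest adjusted p-values of 0.785 (genotype) and 0.0819 (batch). Over all genes, the 1 call between the genotypes became 0 without the variance trend, without the batch term, with a block of replicate numbers and in batch 2 alone, 28 in batch 1 alone, and 0 to 3 with 1 library left out (0 without fl/Y replicate 1 or 3, 3 without cKO/Y replicate 2, 2 without replicate 3). The cause was not tested.

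Signs of small genotype differences turned, each far from the threshold. With the replicate block the log2 fold changes were -0.041 for *Bad*, 0.025 for *Bcl2*, -0.034 for *Bcl2l1* and -0.026 for *Bcl2l2*. Deviations of same-numbered libraries correlated at r = 0.101, 0.066 and 0.392 for numbers 1 to 3. Fl/Y replicate 1 correlated best with cKO/Y replicate 2 (r = 0.474), and fl/Y replicate 3 with cKO/Y replicate 3. The deviations still hold the batch, so these correlations cannot show whether same-numbered libraries were pairs. In batch 2 alone *Bcl2* was at 0.33, *Bcl2l1* at -0.11 and *Bcl2l2* at -0.27, and in batch 1 alone *Bak1* was at 0.061 and *Mcl1* at 0.029. Without scaling factors *Bcl2l1* was at -0.0066 and *Bcl2l2* at -0.0011, with a pseudocount of 0.1 CPM *Bcl2l1* was at -3.4e-05, and *Bcl2l2* was at -0.011 by edgeR and -0.0063 by DESeq2. In the batch comparison, *Bad* (-0.19) and *Mcl1* (-0.23) turned without scaling factors, and *Bcl2* (0.00082) with a pseudocount of 1 CPM.

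With 1 library left out, the genotype log2 fold changes ranged from 0.14 to 0.88 for *Bax*, -0.48 to 0.078 for *Bak1*, 0.13 to 0.51 for *Bok*, -0.089 to 0.12 for *Bad*, -0.050 to 0.34 for *Bid*, 0.10 to 0.38 for *Bcl2l11*, -0.66 to 0.33 for *Bcl2*, -0.11 to 0.16 for *Bcl2l1*, -0.27 to 0.15 for *Bcl2l2* and -0.088 to 0.030 for *Mcl1*. In the batch comparison those that turned ranged from -0.049 to 0.16 for *Bad*, -0.24 to 0.020 for *Bcl2l11*, -0.39 to 0.43 for *Bcl2*, -0.24 to 0.029 for *Bcl2l1* and -0.031 to 0.087 for *Mcl1*. Where a left-out library left 1 in a group of a batch, it was taken to vary like the others. Without fl/Y replicate 3, batch 1 held no fl/Y library, and the genotype log2 fold changes were those of batch 2 alone. They form an end of the genotype range for *Bcl2l11*, *Bcl2*, *Bcl2l1* and *Bcl2l2*, so these ends are no separate check.

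Per kb of the longest transcript, the levels moved to 1.79 CPM for *Bok*, 12.2 for *Bad*, 1.86 for *Bid*, 2.69 for *Bcl2l11* and 32.0 for *Bcl2l1*, and *Bcl2l1* then came before *Mcl1*, *Bcl2l11* before *Bak1* and *Bid* before *Bok*. Per kb of bases free of other genes' exons, a length chosen after seeing the data, *Bak1* moved to 3.47 and *Bad* to 9.21 CPM. A filter of a mean above 5 CPM gave no value for *Bax*, *Bok*, *Bid* and *Bcl2*. Depth limits these 4 most, *Bcl2* above all.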
